A study of Homo sapiens with 9 samples.

Results

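The metallothionein genes described here were the listed human genes MT1A, MT1B, MT1E, MT1F, MT1G, MT1H, MT1M, MT1X, MT2A and MT3. They were followed in SH-SY5Y, a human neuroblastoma cell line, over 3 groups of 3 arrays each. Each gene was represented by probe sets that the array annotation maps to that symbol alone, with the brightest one kept. This gave values for 9 of the 10 genes, each from 1 probe set, among 22465 genes in all; MT1A has no such probe set in the annotation used and was not analysed here. The study exposed the cells for 12 h to okadaic acid, a marine toxin that inhibits the serine/threonine phosphatases PP2A and PP1. The untreated group received 0 nM okadaic acid, and the other groups received 20 nM or 60 nM. All groups were kept in serum-containing medium, and the labels describe the arrays of a group as biological replicates of this single line. On the 3 arrays of the highest dose one label field gives 20 nM. Their titles, source names and the series' design give 60 nM, which was used.

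Metallothioneins are small, cysteine-rich proteins that bind zinc, copper and cadmium. Their genes lie together on chromosome 16. The zinc-sensing factor MTF1 binds metal response elements in their promoters and raises their transcription when free zinc or cadmium rises, and glucocorticoids and oxidative stress are further known inducers. MT2A and the MT1 genes are used by most cell types, whereas MT3 is known as the brain-enriched member and MT4 as the member of stratified epithelia. The coding sequences of the MT1 genes are very alike, so an array probe for one can bind RNA of another; each value is that of a probe set, and how far the copies share signal was not tested.

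RefSeq promoter sequences (build GRCh38.p14, 250 bases before and 50 after the annotated start, all on the + strand) were listed for 4 of the members: MT2A, MT1B, MT1H and MT1X. The sequences of MT2A, MT1H and MT1X are shown because these genes were called changed at 60 nM, MT1X in the opposite direction to the other two. They lie at chr16:56608334-56608633 for MT2A, chr16:56669564-56669863 for MT1H and chr16:56682220-56682519 for MT1X, and capitals mark every match to the metal response element core, TGCACNC or TGCGCNC, on either strand.
MT2A: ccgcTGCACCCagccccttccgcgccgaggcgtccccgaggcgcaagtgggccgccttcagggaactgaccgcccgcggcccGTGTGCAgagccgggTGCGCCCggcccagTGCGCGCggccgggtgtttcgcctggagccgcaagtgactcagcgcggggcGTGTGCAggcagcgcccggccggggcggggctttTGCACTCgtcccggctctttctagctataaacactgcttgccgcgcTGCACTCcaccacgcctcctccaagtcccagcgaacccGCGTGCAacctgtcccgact
MT1H: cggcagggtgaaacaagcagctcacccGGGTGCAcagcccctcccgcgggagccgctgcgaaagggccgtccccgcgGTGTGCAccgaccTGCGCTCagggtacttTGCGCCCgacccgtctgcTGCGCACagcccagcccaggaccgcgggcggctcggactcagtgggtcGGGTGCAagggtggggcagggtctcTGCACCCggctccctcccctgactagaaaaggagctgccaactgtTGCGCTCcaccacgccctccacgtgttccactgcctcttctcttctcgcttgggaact
MT1X: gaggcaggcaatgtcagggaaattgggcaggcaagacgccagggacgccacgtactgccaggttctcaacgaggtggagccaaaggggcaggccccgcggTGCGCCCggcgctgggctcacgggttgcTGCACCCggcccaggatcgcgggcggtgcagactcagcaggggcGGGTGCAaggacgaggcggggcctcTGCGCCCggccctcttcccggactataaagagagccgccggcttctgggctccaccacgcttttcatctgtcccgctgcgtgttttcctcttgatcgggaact
The core was matched 8 times in MT2A, 8 times in MT1H, 4 times in MT1X and 3 times in MT1B. Of all 35116 listed promoters of this length, 29.6% held at least 1 match and 2.30% held 3 or more. The AP-1 letters TGACTCA or TGAGTCA were found once each in MT2A and MT1B and not in MT1H or MT1X, against 4.95% of all promoters. The antioxidant response core TGACNNNGC occurred once each in MT2A, MT1B and MT1X, and 13.4% of all promoters held it; in MT2A it overlapped the AP-1 match. These are matches of letters, and the arrays do not measure binding.

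The deposited values were intensities, given here as log2. A level of 5.82, the 95th percentile of the array's 23 background control probe sets, served as background. By this measure 8 of the 9 members were above background in at least 1 group, MT1M being the exception. The untreated means of MT1G, MT1E, MT1B, MT3 and MT1M lay within 0.5 log2 units of background, where a fall could hardly be measured. Probe sets differ in brightness for reasons other than RNA amount, so levels of different genes were not ranked against each other. Array medians ranged from 4.36 to 4.51, and the mean correlation of an array with its own group from 0.9964 to 0.9989. Untreated replicate 3 had the lowest such correlation and 20 nM replicate 2 the lowest at its dose, and the called members are also given without both. Of markers for the line, 2 of 12 noradrenergic genes (GATA2 and GATA3) were above background in all 3 groups. So were 6 of 8 mesenchymal-type genes (VIM, CD44, FN1, YAP1, SNAI2 and NOTCH2). The other noradrenergic markers measured were at or below background. The cultures thus showed few noradrenergic and most mesenchymal-type markers. The name SH-SY5Y was taken from the study, and the identity of the cells was not tested. Of further markers, 3 of 6 epithelial (KRT8, KRT18 and KRT19) were above background. Those of leukocytes (0 of 4), Schwann and glial cells (0 of 3) and hepatocytes and kidney (0 of 7) were not. These counts were the same at each dose. In RNA of whole cultures, fewer cells that express a gene and less RNA per cell cannot be told apart.

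At 60 nM okadaic acid, MT1F fell to 39.7% of its untreated level, MT2A fell to 83.3% and MT1H fell to 88.3%, while MT1X rose 1.39-fold. The other 5 members, all near or below background, did not pass the test. The threshold was an adjusted p under 0.05 in limma, Benjamini-Hochberg adjusted over all 22465 genes. Of the 9 members, 4 were called, 1 higher and 3 lower, with a median change of -0.08. Of all genes 21.2% were called, 7.94% higher and 13.2% lower, with a median change of 0.00. Genes above background were called more often, at 41.0% of 10062, and 4 of the 8 members above background were called. The 41.0% covers every gene above background and was not matched to the members for brightness. The called members were MT1F, MT2A, MT1H and MT1X, while MT1G, MT1E, MT1B and MT3 lay within 0.5 log2 units of background when untreated.

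MT1F, a zinc- and cadmium-binding MT1 isoform, had log2 intensities of 13.25, 13.53 and 13.74 in the untreated arrays. It had 13.33, 13.03 and 13.05 at 20 nM and 12.06, 12.21 and 12.25 at 60 nM. The 60 nM arrays all lay below the other 6, and the untreated and 20 nM arrays overlapped. The change from untreated to 60 nM was -1.33 (SE 0.14, n = 3 arrays per group, limma adjusted p = 0.000487), with a 95% interval of -1.65 to -1.02. Of the 2969 genes called lower, 107 fell by more than MT1F. Without untreated replicate 3 and 20 nM replicate 2 together the change was -1.22, still called.

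MT1X, another MT1 isoform, was the one member called higher. Its log2 intensities were 10.24, 10.34 and 10.32 untreated, 10.29, 10.24 and 10.13 at 20 nM, and 10.69, 10.73 and 10.88 at 60 nM. The 60 nM arrays all lay above the other 6. The change from untreated was 0.47 (SE 0.06, n = 3 per group, limma adjusted p = 0.00165). Of the 1783 genes called higher, 1124 rose by more. Without untreated replicate 3 and 20 nM replicate 2 the change was 0.48 and still called. When each array was shifted by its spiked hybridisation controls instead, the value was 0.48 and the call was lost (adjusted p = 0.149). The mean of those controls ranged from 9.18 (20 nM replicate 3) to 9.93 (60 nM replicate 1). Under this shift 2248 of all genes were called, in place of 4752.

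MT2A, the major isoform in most human cells, had log2 intensities of 15.77, 15.78 and 15.84 untreated, 15.91, 15.73 and 15.78 at 20 nM, and 15.45, 15.49 and 15.66 at 60 nM. Every 60 nM array was below every other array. The change from untreated was -0.26 (SE 0.07, n = 3 per group, limma adjusted p = 0.0267), and 2418 called genes fell by more. This call was lost in 12 of the 21 alternatives, over which the adjusted p ran from 0.0104 to 0.888. Leaving out 1 array ended it for untreated replicate 1, 2 or 3 (adjusted p = 0.0543, 0.0691 and 0.0871) and for 60 nM replicate 1 or 2 (0.0876 and 0.0913); without untreated replicate 3 and 20 nM replicate 2 together it was 0.0987.

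MT1H, also an MT1 isoform, had log2 intensities of 9.42, 9.47 and 9.44 untreated, 9.39, 9.35 and 9.39 at 20 nM, and 9.19, 9.33 and 9.27 at 60 nM. The groups at 0 nM and 60 nM did not overlap, and the 60 nM values were all below those at 20 nM. The change from untreated was -0.18 (SE 0.04, n = 3 per group, limma adjusted p = 0.0132). It lost the call in 7 of the 21 alternatives, among them the fit without untreated replicate 2 (adjusted p = 0.0527) and that without untreated replicate 3 and 20 nM replicate 2 (0.0572).

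**Figure D1:**
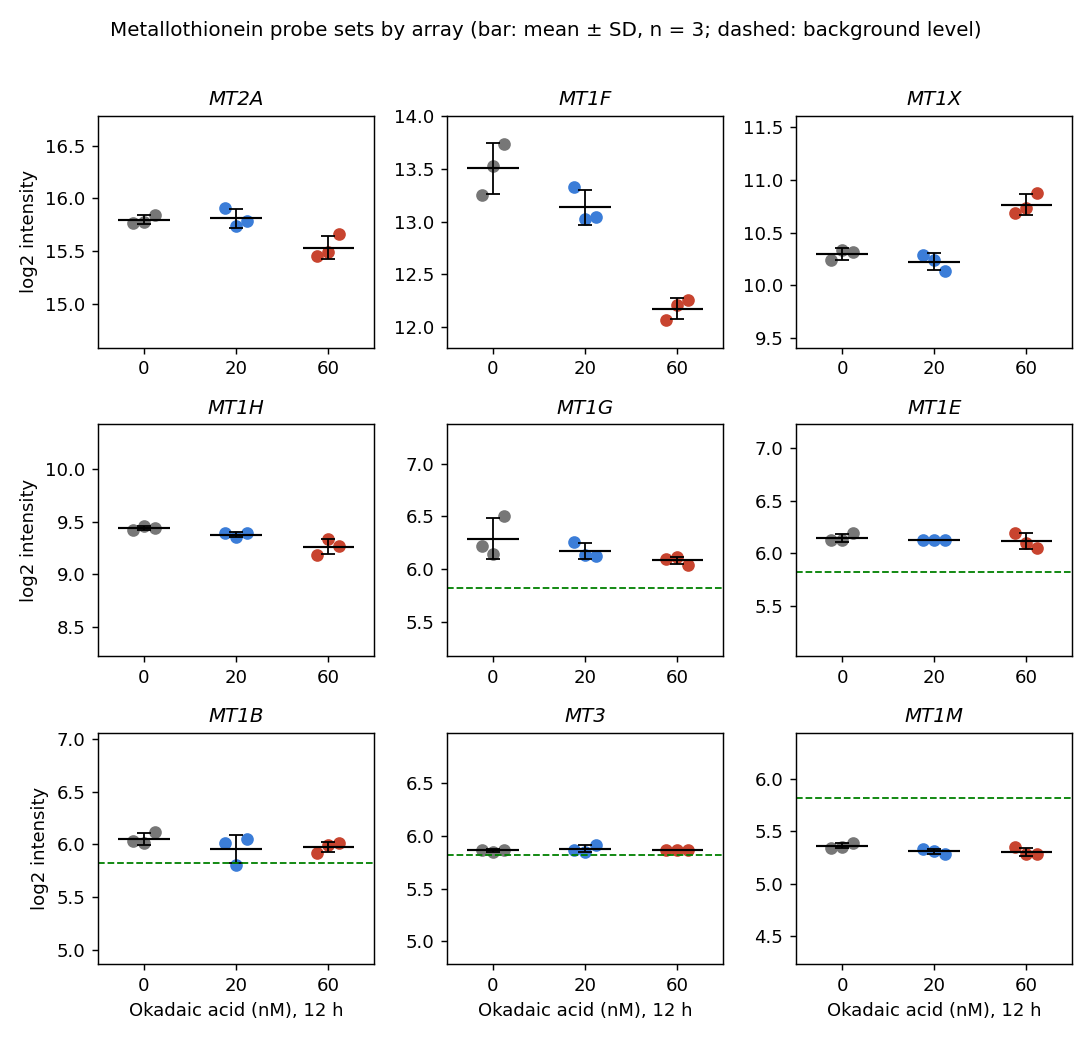
Log2 intensity of the 9 measured metallothionein genes by group (untreated, 20 nM and 60 nM okadaic acid), 1 panel per gene; points are arrays, bars are the mean ± SD of 3 arrays, the dashed line is the background level of 5.82, and each vertical axis spans the same log2 range. The 60 nM points of MT1F lie below all its other points, those of MT1X lie above, and MT1B, MT1E, MT1G, MT1M and MT3 sit close to or below background.

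The remaining members stayed close to background in each group. MT1G, which had 6.29 ± 0.19 untreated (SD, n = 3), reached 6.08 ± 0.04 at 60 nM, and the change of -0.21 was not called (limma adjusted p = 0.191). MT1E had 6.15 ± 0.04 and 6.11 ± 0.07, MT1B had 6.05 ± 0.05 and 5.97 ± 0.05, and MT1M had 5.36 ± 0.03 and 5.31 ± 0.04 in the same groups. MT3, known in the brain as a growth inhibitory factor, had 5.86 ± 0.01 untreated, 5.88 ± 0.03 at 20 nM and 5.87 ± 0.00 at 60 nM. MT3 carried exactly the same value, to 4 decimals, on 6 of the 9 arrays and MT1E on 5. Such repeats were common, with 55.0% of all genes sharing 1 value on 3 or more arrays, and an SD of 0.00 reflects such repeats.

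Apart from the members, 7 further metallothionein symbols had probe sets. MT4 and the RefSeq pseudogenes MT1L, MT1JP, MT1DP, MT1CP and MT1IP were not called at 60 nM against untreated. MT1CP had 9.53 ± 0.17 untreated (SD, n = 3), 9.29 ± 0.10 at 20 nM and 9.34 ± 0.03 at 60 nM, and MT1L had 7.37, 7.20 and 7.51. MT1P2, which RefSeq now names MT1HL1, was called lower by limma (-0.20, adjusted p = 0.0218) although it lay below background in every group, at 5.49 untreated and 5.28 at 60 nM. That call was lost without untreated replicate 1 or 3 or 60 nM replicate 2 (adjusted p = 0.0655, 0.0710 and 0.0582). Along chromosome 16, MT2A lies towards one end of the cluster and MT1F, MT1G, MT1H and MT1X towards the other, in that order, with changes of -1.33, -0.21, -0.18 and 0.47 for the last 4.

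**Figure D2:**
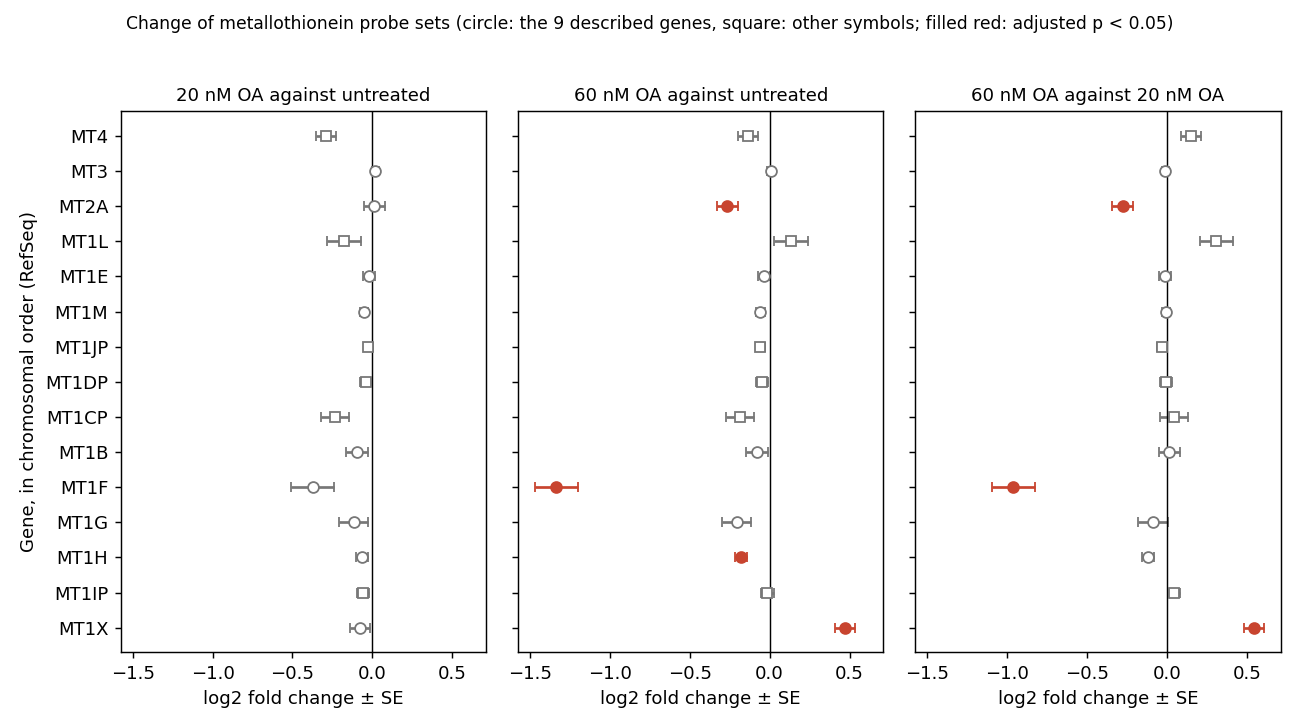
Log2 fold change ± SE (horizontal axis) of the metallothionein symbols of chromosome 16, in RefSeq chromosomal order along the vertical axis. The 3 panels are, from left to right, 20 nM against untreated, 60 nM against untreated and 60 nM against 20 nM. Circles are the described genes, squares other metallothionein symbols, and filled red marks have an adjusted p under 0.05. MT1F at -1.33 and MT1X at 0.47 move in opposite directions at 60 nM, and no mark is filled at 20 nM.

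At 20 nM okadaic acid, none of the 9 members was called against untreated by limma. At an unadjusted p under 0.05 there was 1, MT1F, with a change of -0.37 (SE 0.14, limma adjusted p = 0.906). Of all genes 0.0223% were called, and 4.98% had an unadjusted p under 0.05. The 95% intervals of the change ran from -0.69 to -0.06 for MT1F, from -0.14 to 0.17 for MT2A, from -0.22 to 0.07 for MT1X and from -0.15 to 0.02 for MT1H. These intervals leave out a fall of MT1F or a rise of MT1X as large as that measured at 60 nM. Among the other symbols MT4 was lower in every 20 nM array, with 6.07 ± 0.13 untreated and 5.78 ± 0.02 at 20 nM (SD, n = 3), and was not called (-0.29, adjusted p = 0.407).

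Between the doses, which share no arrays, MT1F was lower at 60 nM than at 20 nM by -0.96 on the log2 scale (SE 0.14, n = 3 per group, limma adjusted p = 0.00295). MT1X was higher by 0.55 (SE 0.06, adjusted p = 0.00117), which became 0.26 and lost the call under the hybridisation control shift (0.312). MT2A was lower by -0.28 (SE 0.07, limma adjusted p = 0.0264). The difference of MT1H, -0.11, was not called (adjusted p = 0.084). Thus 3 of 9 members were called, 1 higher and 2 lower, against 17.8% of all genes (6.94% higher and 10.9% lower) and 35.1% of those above background. For MT1F the order of the means was untreated, 20 nM and 60 nM from high to low, and the first pair did not differ past the threshold. For MT2A and MT1X untreated and 20 nM were the neighbours that did not differ past it. This comparison and that against untreated share the 60 nM arrays. The MT2A call was lost in 10 of the 21 alternatives, among them quantile normalization (-0.15, adjusted p = 0.241), only the 6 arrays compared (0.0697) and both chromosome scores (0.0702 and 0.125). It was also lost without untreated replicate 2, 20 nM replicate 1 or 3, or 60 nM replicate 1 or 2, with adjusted p = 0.0504, 0.0791, 0.0635, 0.0852 and 0.0905. MT1H was called with equal array medians (0.0323) and without 60 nM replicate 2 (0.0341).

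Differences between members within an array do not depend on a constant shift of that array. They are given as a description for MT1F, MT1X and MT2A, which were picked for their calls in the same arrays. Relative to its untreated mean, MT1X minus MT1F was 0.19, 0.02 and -0.21 in the untreated arrays, 0.17, 0.43 and 0.30 at 20 nM, and 1.84, 1.73 and 1.84 at 60 nM. The 60 nM arrays stood above all others, a change of 1.80 (SE 0.12) from untreated, equal to a 3.49-fold change in the ratio. MT2A minus MT1F changed by 1.07 (SE 0.13) and MT1X minus MT2A by 0.73 (SE 0.03). At 20 nM the changes of the 3 differences were 0.30, 0.39 and -0.09. An exact permutation test of 3 against 3 arrays gave p = 0.1 for each difference at 60 nM against untreated. At 20 nM against untreated it gave 0.2, 0.1 and 0.3, in the order above. The smallest p this test can give is 0.1, and the genes were picked in the same arrays, so no conclusion is drawn from it. A ratio does not tell which of its genes stayed level.

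**Figure D3:**
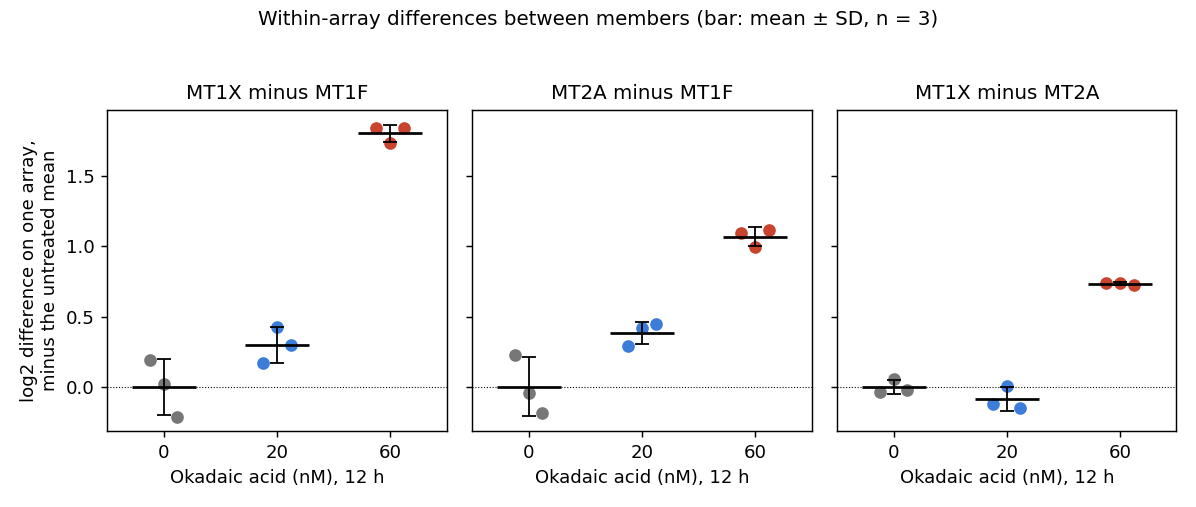
Within-array log2 differences MT1X minus MT1F, MT2A minus MT1F and MT1X minus MT2A, each minus its untreated mean, by group; points are the 3 arrays of a group. At 60 nM the MT1X minus MT1F points lie between 1.73 and 1.84, above every untreated and 20 nM point.

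The genes whose pattern was most like that of MT2A, taken because its probe set was the brightest among the members, were ranked by Pearson correlation over the 9 arrays among 10049 other genes above background. CC2D1A came first (0.989), followed by HINFP, SLC4A2, UBE2Q2P16, FIS1 and TRAF3IP2 (0.967). The arrays fall into 3 treatment groups, so the measure mainly follows the lower 60 nM arrays. The size of change differed, with CC2D1A at 6.66 ± 0.01 untreated and 6.60 ± 0.03 at 60 nM (SD, n = 3) and TRAF3IP2 at 6.66 ± 0.09 and 6.32 ± 0.06. At 60 nM against untreated CC2D1A, SLC4A2 and FIS1 were not called (limma adjusted p = 0.0855, 0.152 and 0.116). HINFP, UBE2Q2P16 and TRAF3IP2 were called lower, and lost the call in 16, 14 and 9 of the 21 alternatives.

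Genes of metal handling and metal-responsive transcription, genes induced by cadmium or zinc, and glucocorticoid receptor targets were read from 7 lists. MTF1, the zinc-sensing activator of metallothionein genes, rose by 0.30 at 60 nM (SE 0.06, limma adjusted p = 0.0123), from 8.54 ± 0.06 untreated (SD, n = 3) through 8.73 ± 0.08 at 20 nM to 8.83 ± 0.09. That call was lost with equal array medians (adjusted p = 0.0897), with the hybridisation control shift (0.655) and with a chromosome score over genes above background (0.134). SP1, a general activator that binds GC-rich promoters, fell by 1.08 and STAT3 fell by 0.44 in the same list of 10 metal-responsive transcription genes. Of these 10, all above background, 1 was called higher and 2 lower, against 21.2% called of all genes and 41.0% of those above background. The STAT3 call was lost without untreated replicate 2 or 60 nM replicate 2 (adjusted p = 0.0515 and 0.0546), with only the 6 arrays compared (0.0659), with the hybridisation control shift (0.241) and with the chromosome score over genes above background (-0.23, 0.0947).

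Of 10 zinc exporters of the SLC30 family, 6 of them above background, 1 was called higher and 2 lower. Of 14 SLC39 importers, 11 of them above background, 0 were higher and 2 lower. Over all genes 21.2% were called, and over genes above background 41.0%. SLC30A1, the plasma membrane exporter that is itself an MTF1 target, had 8.23 ± 0.30 untreated and 8.85 ± 0.17 at 60 nM (SD, n = 3) and was not called by limma (0.62, SE 0.19, adjusted p = 0.0636). It was called in 4 of the 21 alternatives, which were the hybridisation control shift (adjusted p = 0.0231), quantile normalization (0.0315), the fit of genes above background alone (0.0276) and the fit without 20 nM replicate 1 (0.0435). SLC30A7, which loads zinc into the Golgi, rose by 0.58, whereas SLC30A6 fell by 1.17 and SLC30A4 fell by 0.49. The importers SLC39A1 and SLC39A11 fell by 0.24 and by 0.25. The SLC39A11 call was lost without untreated replicate 2, 60 nM replicate 2 or 60 nM replicate 3 (adjusted p = 0.0860, 0.0839 and 0.0719). The hybridisation control shift ended the calls of both importers and of SLC30A4, with adjusted p of 0.141 to 1.0. A chromosome score over genes above background ended those of SLC30A7 (0.41, adjusted p = 0.0829), SLC39A1 (-0.16, 0.0828) and SLC39A11 (0.129).

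Among 16 copper-handling genes, 13 of them above background, 3 were called higher and 3 lower. Over all genes 21.2% were called, and over genes above background 41.0%. The copper importer SLC31A1 rose by 0.15, SLC31A2 by 0.41 and the copper pump ATP7A by 0.60, and the metalloreductase STEAP3 fell by 0.35. With the hybridisation control shift SLC31A1, SLC31A2 and STEAP3 lost their calls (adjusted p = 1.0, 0.270 and 0.4998), and with equal array medians SLC31A1 did (0.210). The chromosome score over genes above background ended the calls of ATP7A (0.41, adjusted p = 0.121) and STEAP3 (-0.22, 0.119). Of 10 iron genes, 8 of them above background, 4 were higher and 2 lower, beside the same 21.2% and 41.0%. TFRC, the transferrin receptor, rose by 0.77, the ferritin light chain FTL by 0.58 and the iron-regulatory protein ACO1 by 0.49, while the iron importer SLC11A2 fell by 0.91. The ACO1 call was lost with the hybridisation control shift (adjusted p = 0.124).

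Of 17 genes that cadmium or zinc is known to induce, metallothioneins left out, 11 were called higher and 0 lower, with a median change of 0.83. ATF3 rose by 1.97, DDIT3 by 0.98, the glutathione synthesis gene GCLC by 0.95 and the heme-degrading HMOX1 by 0.83, the last of these from below background. HSPA1A, the inducible heat shock protein, changed by -0.19 and was not called. HSPA6 of this list was not called either (-0.01), whereas DNAJB1, HSPH1 and BAG3 were called higher, by 1.87, 1.3 and 0.98. Of 11 glucocorticoid targets 5 were higher and 0 lower, with a median of 0.24; ERRFI1 rose by 2.84, SGK1 by 1.91 and DUSP1 by 1.21, and TSC22D3 was not called. These counts stand beside the 21.2% called over all genes, of which 7.94% were called higher and 13.2% lower. Of the 10062 genes above background 41.0% were called, with 1495 genes higher and 2629 lower. Above background were 15 of the 17 cadmium or zinc induced genes and 6 of the 11 glucocorticoid targets. The lists include stress genes that also respond to stimuli other than metals. At 20 nM limma called none of the members of the 7 lists, and 0.0223% of all genes. An unadjusted limma p under 0.05 was reached by 4 of 17 cadmium or zinc induced genes and 3 of 11 glucocorticoid targets. It was also reached by 2 of 10 metal-responsive transcription genes, 1 of 10 iron genes and none of the zinc transporters or copper genes. The share was 4.98% over all genes and 7.91% over genes above background.

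**Figure D4:**
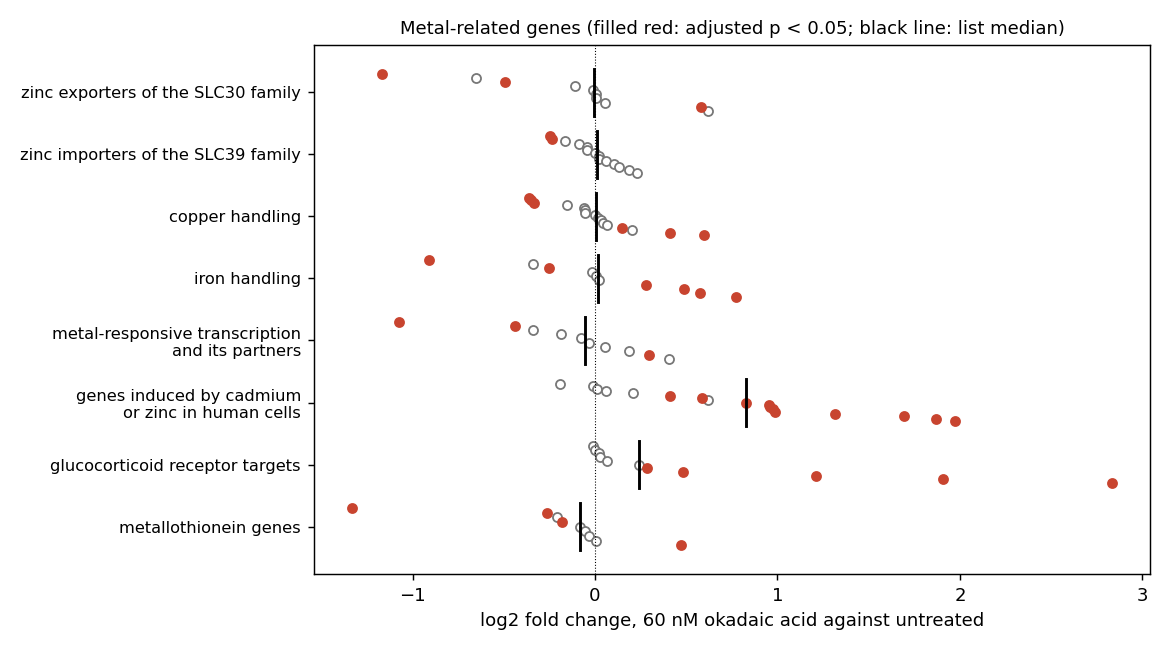
Log2 fold change at 60 nM against untreated for the genes of the 7 lists, glucocorticoid targets among them, and the metallothioneins. Each point is a gene and the black line is the list's median. The median of the cadmium and zinc induced list is 0.83, while that of the metallothioneins is -0.08 with MT1F and MT1X at opposite ends.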

How the data were processed

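RNA of 9 cultures was hybridised to 1-colour arrays. The deposited values are linear intensities that the authors made with RMA, per the submitters' processing notes, which name no version. The values reach 999953 with a median of 21.8, so log2 was taken with no added constant, although a table on the log2 scale had been considered possible. Of 70523 probe sets, 23781 had 1 symbol and 1543 several, and the probe set of highest mean stood for each of 22465 genes. No symbol needed updating through RefSeq.

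All 9 arrays entered 1 limma 3.58.1 fit (R 4.3.3; lmFit and eBayes, no trend), each group having its own term. The fit was tested on simulated data. The number of arrays limits the precision. Nothing states more of the replicates than that they are biological, and a p-value here reflects only how far these arrays vary, which may be technical.

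The text names every metallothionein symbol, up to 4 genes of smallest p per list and comparison with untreated, MTF1, SLC30A1, HMOX1 and HSPA1A, and the 6 genes most like MT2A. HSPA6, DNAJB1, HSPH1 and BAG3 were added beside HSPA1A. The members and lists were chosen with earlier results of these data known. Alternatives covered normalization, added constant, dim genes, probe choice, variance model, arrays, replicate number and a score of gene-rich against gene-poor chromosomes. Proteins and promoters that the sequence tables do not list are not used here.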

Additional observations from a re-analysis of the deposited data

How the results depend on the processing

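Across 21 alternatives the fall of MT1F at 60 nM kept its call, with changes of -1.46 to -1.09 against untreated, and the rise of MT1X was lost only under the hybridisation control shift. The number of members called at 60 nM against untreated was 4, and became 2 with quantile normalization, 1 with the hybridisation control shift, 2 with only the 6 arrays compared, 2 without untreated replicate 3 and 20 nM replicate 2, 2 with the chromosome score, and 2 with a chromosome score over genes above background, an alternative chosen after seeing the data. Leaving out 1 array gave 2 to 4. Against 20 nM it was 3, between 2 and 4 over all alternatives and between 2 and 3 with 1 array left out; at 20 nM against untreated it was 0 throughout. The hybridisation control shift moved the median of all genes to 0.29 at 20 nM and to -0.28 between the doses. The members' medians became 0.23 and -0.30. This shift changes every gene of an array by the same constant, so the members had to move with all genes. It also turned SLC31A1 between the doses from 0.11 to -0.18. Genes called among all 22465 numbered 4752 at 60 nM against untreated, 2248 with the hybridisation control shift and 3064 with the added chromosome score; at 20 nM they ranged from 0 to 27. Same-numbered replicates did not deviate together (correlations of -0.67 to 0.12). Some arrays with different numbers did, with 0.641 for untreated replicate 3 and 20 nM replicate 1. Others deviated in opposite directions, with -0.474 for untreated replicate 3 and 20 nM replicate 2. These deviations were taken from group means of 3 arrays and no label says what a number shares, so whether the numbers pair the arrays stays undecided. With the replicate block 3 members were called at 60 nM against untreated, 0 at 20 nM and 2 between the doses. The cause of these changes was not tested. Brightness near background limits what MT1B, MT1E, MT1G, MT1M and MT3 can show.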
